A study of Rattus norvegicus with 24 samples.

Results

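The circadian clock genes are 9 of the 30560 gene identifiers counted in these libraries. They were taken by identifier: Bmal1 (ENSRNOG00000014448), Clock (ENSRNOG00000002175), Per1 (ENSRNOG00000007387), Per2 (ENSRNOG00000020254), Per3 (ENSRNOG00000018413), Cry1 (ENSRNOG00000006622), Nr1d1 (ENSRNOG00000009329), Nr1d2 (ENSRNOG00000046912) and Dbp (ENSRNOG00000021027). The names come from the list that defined the set. All 9 passed the filter on low counts in each tissue, with 105 to 13027 counts per gene and library. Whole lung and whole liver of rat pups (Sprague Dawley, wild type) were taken for RNA-seq on postnatal day 6. Each animal had received 5 subcutaneous injections, 1 each morning from postnatal day 1, of desisobutyryl ciclesonide at 1.25 mg/kg, dexamethasone at 0.1 mg/kg or vehicle, which was 2.5% ethanol. Tissue was frozen 24 hours after the last injection, and there were 4 libraries for each tissue and treatment. Both drugs act on the glucocorticoid receptor: dexamethasone is a potent synthetic steroid, and esterases turn the inhaled prodrug ciclesonide into its active form, desisobutyryl ciclesonide. They were given at different doses, so values for the drugs set side by side are not matched for dose. The strain, age and schedule were common to all groups.

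The clock is a feedback loop of transcription that runs in most cells with a period of about a day. The proteins of Bmal1 and Clock pair and bind E-box sequences in the genes for the Per and Cry proteins, which return to the nucleus and repress that pair. In a further loop the nuclear receptors made from Nr1d1 and Nr1d2, also called REV-ERB alpha and beta, repress Bmal1 through ROR elements. Dbp, a factor that binds D-boxes, is an output gene that the Bmal1 and Clock pair drives. Bmal1 messenger RNA therefore peaks at a different time of day from Dbp, Nr1d1 and the Per genes. Glucocorticoids are known as a timing signal for the clocks of lung and liver, and Per1 is a known direct target of the glucocorticoid receptor in mouse and human cells. Every pup was sampled at a single time. A change in the height of a rhythm and a shift of its phase cannot be told apart in these libraries, and neither can a change in cell make-up and one in RNA per cell.

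Elements named in these loops were searched for in the promoters. RefSeq windows of 300 bases, from 250 before to 50 after an annotated start in build GRCr8, were matched by symbol for 8 of the 9 genes, all but Cry1, and the Per1 window lies at a start inside that gene. The counts were made on another build, so the coordinates are those of GRCr8 alone. The windows below are shown because each carries an element named in the loop, written 5′ to 3′ with the matches in capitals. They are Bmal1 on the plus strand of chr1:176766078-176766377, Per2 on the minus strand of chr9:99496944-99497243 and a downstream start of Nr1d1 on the minus strand of chr10:84229405-84229704.
Bmal1: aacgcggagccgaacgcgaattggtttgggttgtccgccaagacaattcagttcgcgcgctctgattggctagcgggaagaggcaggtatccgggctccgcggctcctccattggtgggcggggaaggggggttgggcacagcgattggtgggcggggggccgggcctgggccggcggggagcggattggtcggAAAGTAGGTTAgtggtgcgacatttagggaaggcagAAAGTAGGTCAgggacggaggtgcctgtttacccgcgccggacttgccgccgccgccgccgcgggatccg
Per2: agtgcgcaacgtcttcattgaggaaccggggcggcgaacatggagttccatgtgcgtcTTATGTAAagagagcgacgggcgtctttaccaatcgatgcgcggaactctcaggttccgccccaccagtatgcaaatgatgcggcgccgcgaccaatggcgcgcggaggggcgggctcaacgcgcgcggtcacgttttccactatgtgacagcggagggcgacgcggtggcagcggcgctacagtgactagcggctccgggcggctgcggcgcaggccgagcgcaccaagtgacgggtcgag
Nr1d1: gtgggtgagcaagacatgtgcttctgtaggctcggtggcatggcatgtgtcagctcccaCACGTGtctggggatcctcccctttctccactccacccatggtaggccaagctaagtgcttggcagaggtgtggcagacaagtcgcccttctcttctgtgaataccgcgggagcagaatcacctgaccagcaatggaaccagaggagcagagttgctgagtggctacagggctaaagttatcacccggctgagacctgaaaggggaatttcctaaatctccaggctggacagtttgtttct
The Bmal1 window holds an ROR element (searched as TAGGTCA and TGGGTCA on both strands), a motif found in 6.60% of all 33469 windows. It lies within the longer AAAGTAGGTCA, and AAAGTAGGTTA stands further upstream. The pattern shared by these longer sequences, with any base where they differ, was searched after the Bmal1 window had been read, and 0.0359% of windows hold it on either strand. The Per2 window holds a D-box (TTATGTAA or TTACGTAA, 1.01% of windows), and the Nr1d1 window shown holds the E-box CACGTG (6.42% of windows). No window of the 8 genes matched the palindromic glucocorticoid response element (0.439% of windows) or the cAMP element TGACGTCA (1.83% of windows). These are matches of letters in short windows, and the windows of Per1, Per3, Clock, Dbp, Nr1d2 and the upstream start of Nr1d1 matched none of the motifs.

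The depth in gene counts was 15839958 to 27881158 per lung library and 15397992 to 26194384 per liver library. Levels are given as CPM, a gene's count relative to its library's total after scaling by the trimmed mean of M-values (TMM) within each tissue; transcript lengths were not used, so levels are not compared between genes. A gene was called changed at an adjusted p under 0.05, from edgeR's quasi-likelihood test over all genes of the tissue with Benjamini-Hochberg adjustment. Values of 4 libraries are listed in the order of replicates 1 to 4. The share of unaligned reads was 0.930% to 1.25% in desisobutyryl ciclesonide lungs, 1.93% to 3.499% in dexamethasone lungs and 2.32% to 3.01% in vehicle lungs. In liver it was 0.801% to 1.40% with desisobutyryl ciclesonide, 1.88% to 2.41% with dexamethasone and 2.04% to 3.32% with vehicle. The 8 desisobutyryl ciclesonide libraries also carry a separate numbering in the deposit, so the drug and the library series cannot be told apart. Lung dexamethasone replicates 3 and 4 differed from the other 10 lung libraries in 25 genes, each at 10 CPM or more and at least 4-fold over those 10. Their sums were 2327 and 6969 CPM there, and no other lung exceeded 65.6 CPM. The genes were chosen by that gap, and no other libraries were searched in the same way. Results in lung are also given without dexamethasone replicates 3 and 4 where it matters. The identifiers of tissue marker genes are not paired with names in the files or the reference table, so the tissue labels were not checked against markers.

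Dexamethasone raised 6 of 9 clock genes in each tissue, Bmal1, Clock, Per1, Cry1, Nr1d1 and Nr1d2, and lowered none by the test. Over all genes 55.6% were called in lung (26.9% higher, 28.7% lower) and 47.5% in liver (22.5% higher, 24.9% lower). All of these 6 genes were without overlap above vehicle in lung, as were 23.7% of all genes. The median log2 change of the 9 genes was 0.62 in lung, where that of all genes tested was -0.013, and 0.79 in liver, where it was -0.021. Under desisobutyryl ciclesonide, Per1, Nr1d1 and Nr1d2 rose in lung and Cry1 fell, against 24.1% of all genes called, 11.8% higher and 12.3% lower. In liver Bmal1 alone was called among the 9, and it was higher, against 4.52% of all genes called, 2.09% higher and 2.43% lower; 4 of the 9 had an unadjusted p under 0.05, as had 21.0% of all genes. Each drug was set against one and the same vehicle group, so the results for the drugs are not independent. On unscaled library totals the median log2 change of all genes moved by -0.236 for dexamethasone in liver, 0.186 for desisobutyryl ciclesonide against dexamethasone in liver and 0.162 for the dexamethasone difference between tissues, and no call of a clock gene changed direction in these. Values that were not called did, with Per2 and Per3 in dexamethasone livers at -0.18 and -0.20 and the Dbp difference between tissues at 0.013.

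**Figure D1:**
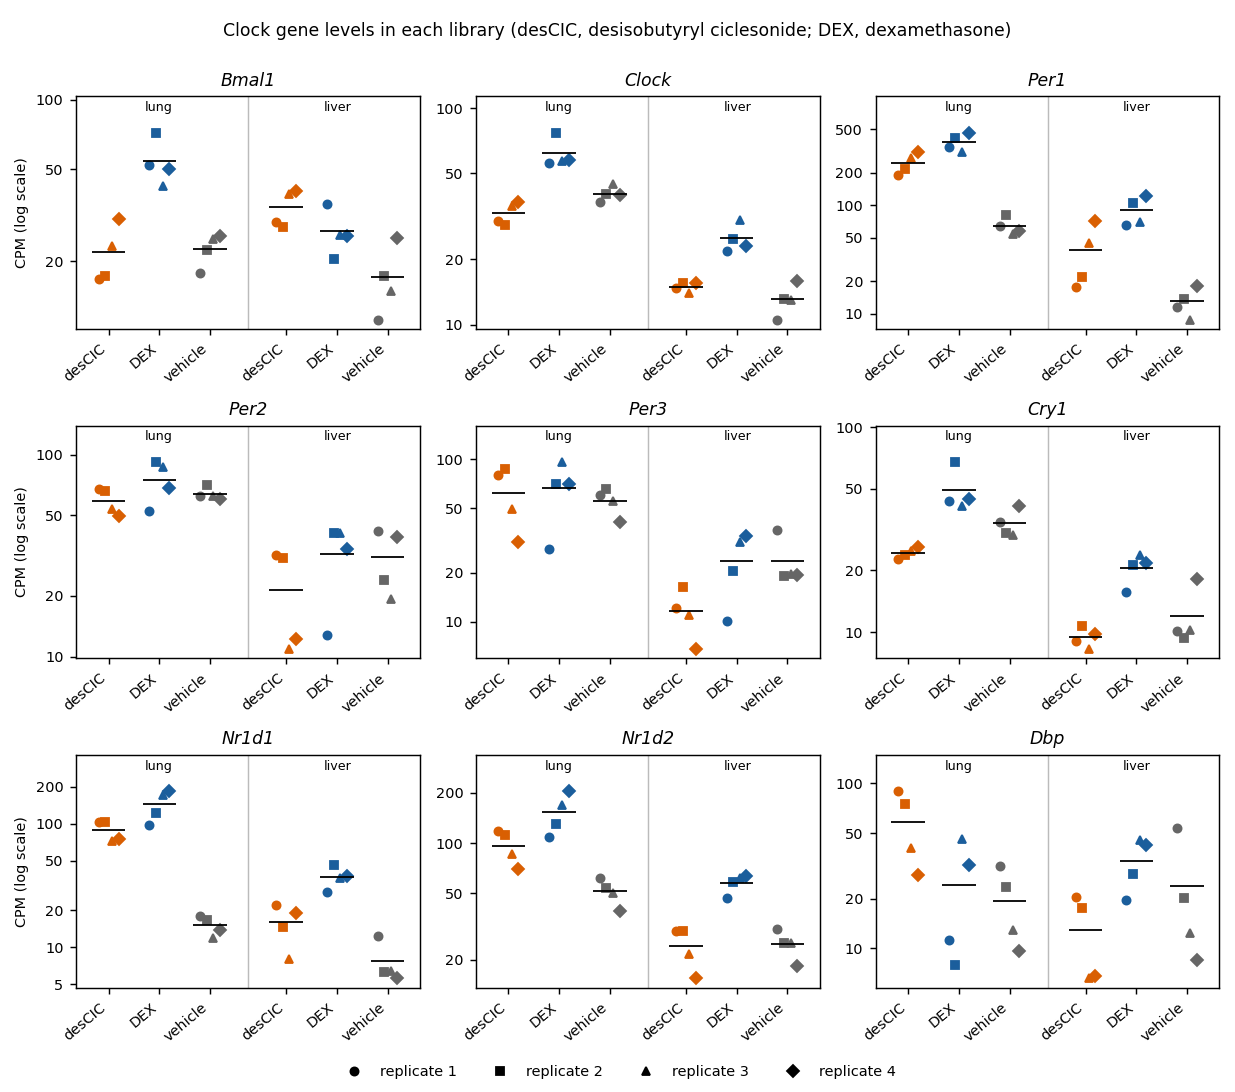
Level of each clock gene in CPM on a log axis in every lung and liver library, with desisobutyryl ciclesonide (desCIC) and dexamethasone (DEX) left of vehicle. Each point is a library, the marker gives its replicate number and the bar the group mean; CPM were scaled separately in lung and liver, and the dexamethasone lungs lie above all vehicle lungs for Bmal1, Clock, Per1, Cry1, Nr1d1 and Nr1d2.

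Of the activators, Bmal1 was raised by dexamethasone in lung to more than its level in any other lung library. Bmal1 stood at 16.8, 17.4, 23.4 and 30.6 CPM in desisobutyryl ciclesonide lungs, 52.2, 72.1, 42.2 and 50.3 CPM in dexamethasone lungs and 17.8, 22.4, 24.9 and 25.8 CPM in vehicle lungs. All 4 dexamethasone lungs lay above the other 8 libraries, a 2.38-fold rise over vehicle (log2 change 1.25, SE 0.21, adjusted p = 0.000220). The desisobutyryl ciclesonide lungs overlapped the vehicle lungs (log2 change -0.048, 95% interval -0.50 to 0.40, adjusted p = 0.893). In liver the order was different, with the highest Bmal1 mean in the desisobutyryl ciclesonide group. Bmal1 stood at 29.6, 28.1, 39.2 and 40.3 CPM in desisobutyryl ciclesonide livers, 35.4, 20.6, 26.1 and 25.6 CPM in dexamethasone livers and 11.2, 17.2, 14.9 and 25.3 CPM in vehicle livers. Each desisobutyryl ciclesonide liver stood above each vehicle liver (log2 change 1.00, SE 0.23, adjusted p = 0.0251), whereas dexamethasone replicate 2 stood below vehicle replicate 4 (log2 change 0.65, SE 0.23, adjusted p = 0.0308). Neither liver call held without every single library. The desisobutyryl ciclesonide call was lost without vehicle replicate 1, 2 or 3 or without desisobutyryl ciclesonide replicate 3 or 4 (adjusted p = 0.0534, 0.0622, 0.0847, 0.0627 and 0.0746; 0.00151 to 0.0847 over all alternatives). The dexamethasone call was lost without vehicle replicate 1, 2 or 3 or without dexamethasone replicate 1 (adjusted p = 0.0851, 0.0608, 0.0805 and 0.0929; 0.00322 to 0.148 over all alternatives), and on unscaled library totals (adjusted p = 0.148).

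Clock, the partner of Bmal1, had the tightest replicates of the 9 genes in both tissues. Clock stood at 29.99, 28.9, 35.5 and 36.9 CPM in desisobutyryl ciclesonide lungs, 55.7, 77.3, 56.8 and 57.5 CPM in dexamethasone lungs and 36.7, 40.2, 44.8 and 39.5 CPM in vehicle lungs. Dexamethasone raised it 1.53-fold with no overlap with vehicle (log2 change 0.62, SE 0.12, adjusted p = 0.000838), which was near the middle of the size of change over all genes, since 44.8% changed by at least as much. Desisobutyryl ciclesonide lungs were not called different from vehicle lungs (log2 change -0.30, 95% interval -0.56 to -0.029, adjusted p = 0.0993), a result that passed without lung dexamethasone replicate 2 (adjusted p = 0.0358) and on unscaled library totals (adjusted p = 0.0242; 0.0242 to 0.224 over all alternatives). Clock stood at 14.7, 15.5, 14.001 and 15.6 CPM in desisobutyryl ciclesonide livers, 21.9, 24.98, 30.5 and 23.01 CPM in dexamethasone livers and 10.5, 13.1, 13.1 and 15.8 CPM in vehicle livers. The dexamethasone livers again lay above all other livers, 1.92-fold over vehicle (log2 change 0.94, SE 0.15, adjusted p = 0.000105), and the desisobutyryl ciclesonide livers overlapped vehicle (log2 change 0.19, 95% interval -0.12 to 0.50, adjusted p = 0.487).

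Among the repressors, Per1 changed most. Per1 stood at 192, 217, 275 and 307 CPM in desisobutyryl ciclesonide lungs, 344, 416, 308 and 468 CPM in dexamethasone lungs and 64.7, 81.6, 53.99 and 58.4 CPM in vehicle lungs. The groups formed steps without overlap, desisobutyryl ciclesonide and dexamethasone both above vehicle and dexamethasone above desisobutyryl ciclesonide, the last by a narrow gap. Per1 was 3.83-fold higher with desisobutyryl ciclesonide (log2 change 1.94, SE 0.18, adjusted p = 4.56e-05) and 5.94-fold higher with dexamethasone (log2 change 2.57, SE 0.19, adjusted p = 2.35e-07). Only 2.51% of genes changed by as much or more with desisobutyryl ciclesonide in lung, and 5.41% with dexamethasone. Per1 stood at 17.7, 21.7, 44.9 and 70.9 CPM in desisobutyryl ciclesonide livers, 66.5, 104, 69.7 and 122 CPM in dexamethasone livers and 11.5, 13.8, 8.83 and 17.98 CPM in vehicle livers. All dexamethasone livers lay above all vehicle livers, 6.95-fold in the fit (log2 change 2.80, SE 0.44, adjusted p = 0.000300). The desisobutyryl ciclesonide livers were split, with replicates 3 and 4 far above vehicle and replicate 1 just below the highest vehicle liver. The rise did not pass (log2 change 1.58, 95% interval 0.65 to 2.50, adjusted p = 0.0608). It passed without desisobutyryl ciclesonide replicate 1 or 2 (adjusted p = 0.0259 and 0.0486) and with DESeq2 (adjusted p = 0.000854; 0.000854 to 0.157 over all alternatives).

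Per2 and Per3, the other period genes, were not called in either tissue with either drug. Per2 stood at 67.4, 65.7, 53.8 and 49.9 CPM in desisobutyryl ciclesonide lungs, 52.6, 92.004, 86.5 and 68.1 CPM in dexamethasone lungs and 62.1, 70.6, 62.4 and 60.5 CPM in vehicle lungs. The vehicle lungs spanned a narrow range and the dexamethasone lungs lay on both sides of it (log2 change 0.23, 95% interval -0.11 to 0.57, adjusted p = 0.239). Of the desisobutyryl ciclesonide lungs, replicates 1 and 2 lay within that range and replicates 3 and 4 below it (log2 change -0.11, 95% interval -0.45 to 0.23, adjusted p = 0.658). Without lung dexamethasone replicate 1 the dexamethasone rise passed (log2 change 0.36, adjusted p = 0.0338; 0.0338 to 0.569 over all alternatives). Per2 stood at 31.7, 30.6, 10.9 and 12.3 CPM in desisobutyryl ciclesonide livers, 12.8, 40.97, 41.1 and 34.2 CPM in dexamethasone livers and 41.7, 23.9, 19.2 and 38.9 CPM in vehicle livers. Dexamethasone replicate 1 and desisobutyryl ciclesonide replicates 3 and 4 stood below every other liver. The intervals were correspondingly wide, -1.52 to 0.45 for desisobutyryl ciclesonide and -0.91 to 1.04 for dexamethasone on the log2 scale.

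Per3 stood at 80.3, 87.2, 49.6 and 31.03 CPM in desisobutyryl ciclesonide lungs, 27.9, 70.7, 96.2 and 70.4 CPM in dexamethasone lungs and 59.9, 65.7, 55.2 and 41.2 CPM in vehicle lungs. Dexamethasone replicate 1 and desisobutyryl ciclesonide replicate 4 were the lowest lungs, below all vehicle lungs, and the other dexamethasone lungs were above them (log2 change 0.26, 95% interval -0.58 to 1.09, adjusted p = 0.591). Without dexamethasone replicates 3 and 4 together the log2 change was -0.16 (adjusted p = 0.797; 0.180 to 0.951 over all alternatives). The desisobutyryl ciclesonide lungs lay on both sides of the vehicle range (log2 change 0.16, 95% interval -0.67 to 1.00, adjusted p = 0.795). Per3 stood at 12.1, 16.4, 11.01 and 6.797 CPM in desisobutyryl ciclesonide livers, 10.1, 20.4, 30.9 and 33.5 CPM in dexamethasone livers and 36.4, 19.1, 19.8 and 19.3 CPM in vehicle livers. Every desisobutyryl ciclesonide liver lay below every vehicle liver, where 8.1% of all genes did so, but the fall did not pass the test (log2 change -1.03, 95% interval -1.84 to -0.23, adjusted p = 0.136). It passed with DESeq2 (adjusted p = 0.0436; 0.0436 to 0.279 over all alternatives). Dexamethasone livers gave a log2 change of 0.010 (95% interval -0.78 to 0.80, adjusted p = 0.985).

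Cry1, which encodes the partner of the period proteins in repression, was called in opposite directions with the drugs in lung. Cry1 stood at 22.6, 23.8, 24.9 and 25.9 CPM in desisobutyryl ciclesonide lungs, 43.8, 67.7, 41.1 and 44.6 CPM in dexamethasone lungs and 34.5, 30.4, 29.7 and 41.01 CPM in vehicle lungs. Each desisobutyryl ciclesonide lung lay below each vehicle lung (log2 change -0.48, SE 0.16, adjusted p = 0.0394), and each dexamethasone lung lay above them (log2 change 0.54, SE 0.15, adjusted p = 0.00896). The desisobutyryl ciclesonide fall was the weaker call. It was lost without vehicle replicate 1 or 4, without any single desisobutyryl ciclesonide replicate (adjusted p = 0.0821, 0.127, 0.0909, 0.0783, 0.0798 and 0.0626), with limma-voom (adjusted p = 0.0515) and with no filter (adjusted p = 0.0518; 0.00593 to 0.127 over all alternatives). Cry1 stood at 9.05, 10.7, 8.26 and 9.82 CPM in desisobutyryl ciclesonide livers, 15.7, 21.4, 23.7 and 21.7 CPM in dexamethasone livers and 10.1, 9.35, 10.3 and 18.1 CPM in vehicle livers. In liver dexamethasone raised Cry1 (log2 change 0.79, SE 0.20, adjusted p = 0.00495), with vehicle replicate 4 inside the dexamethasone range, and the desisobutyryl ciclesonide livers overlapped vehicle (log2 change -0.34, 95% interval -0.77 to 0.10, adjusted p = 0.363).

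**Figure D2:**
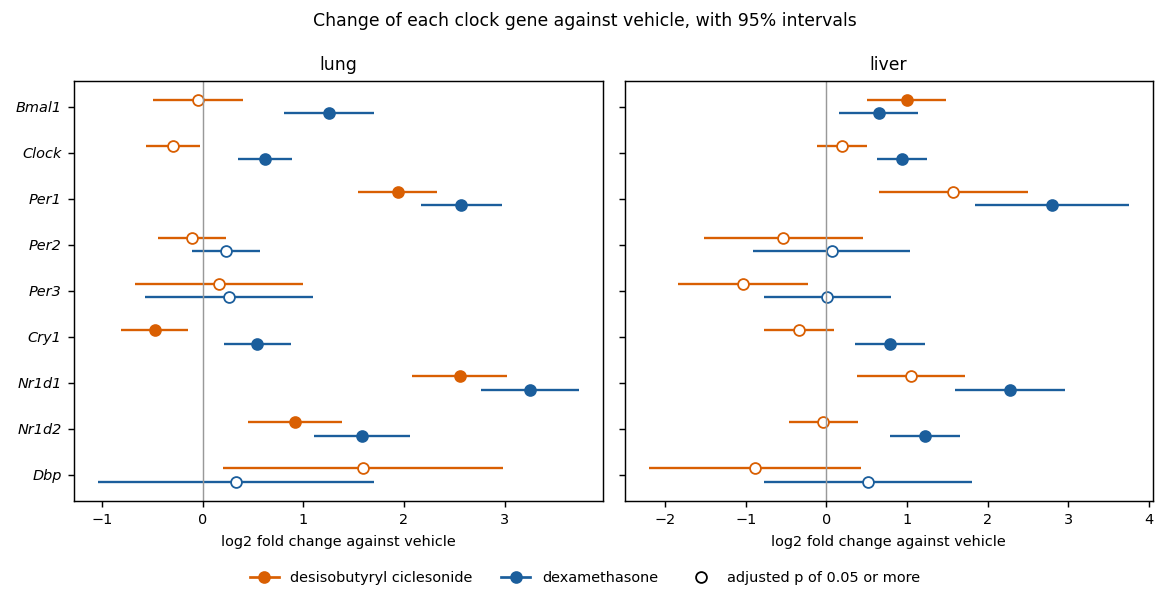
Log2 fold change of each clock gene against vehicle in lung (left) and liver (right) with its 95% interval, for desisobutyryl ciclesonide and dexamethasone at their different doses. Filled points passed an adjusted p of 0.05 and open points did not; Nr1d1 and Per1 have the largest changes in lung, 2.55 and 1.94 with desisobutyryl ciclesonide and 3.25 and 2.57 with dexamethasone.

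Of the nuclear receptors of the further loop, Nr1d1 had the largest change of the 9 genes in lung with each drug. Nr1d1 stood at 103, 103, 72.9 and 74.8 CPM in desisobutyryl ciclesonide lungs, 97.4, 123, 171 and 183 CPM in dexamethasone lungs and 18.1, 16.7, 11.9 and 13.7 CPM in vehicle lungs. Every drug-treated lung stood above every vehicle lung, with a wide gap. The rise was 5.86-fold with desisobutyryl ciclesonide (log2 change 2.55, SE 0.22, adjusted p = 2.75e-05) and 9.51-fold with dexamethasone (log2 change 3.25, SE 0.22, adjusted p = 2.13e-07). Fewer genes changed as much with desisobutyryl ciclesonide, 0.975% of those tested, than with dexamethasone, 3.17%. Without lung dexamethasone replicates 3 and 4 together the dexamethasone log2 change was 2.88 (adjusted p = 9.64e-07; 1.21e-50 to 9.53e-06 over all alternatives). Nr1d1 stood at 22.02, 14.7, 7.97 and 18.999 CPM in desisobutyryl ciclesonide livers, 28.2, 46.5, 36.4 and 37.98 CPM in dexamethasone livers and 12.3, 6.35, 6.44 and 5.601 CPM in vehicle livers. Dexamethasone livers lay above all other livers, 4.85-fold over vehicle (log2 change 2.28, SE 0.32, adjusted p = 7.68e-05). Desisobutyryl ciclesonide replicate 3 lay within the vehicle range and the other replicates lay above it, and the rise did not pass (log2 change 1.05, 95% interval 0.38 to 1.72, adjusted p = 0.0755). It passed without vehicle replicate 1 or desisobutyryl ciclesonide replicate 3 (adjusted p = 0.0239 and 0.0183) and with DESeq2 (adjusted p = 0.0130; 0.0130 to 0.187 over all alternatives).

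Nr1d2 moved the same way as Nr1d1 in lung, by less. Nr1d2 stood at 119, 112, 85.99 and 70.3 CPM in desisobutyryl ciclesonide lungs, 109, 131, 170.2 and 205 CPM in dexamethasone lungs and 62.1, 54.02, 50.1 and 39.3 CPM in vehicle lungs. Neither drug group overlapped vehicle, with a 1.88-fold rise for desisobutyryl ciclesonide (log2 change 0.91, SE 0.22, adjusted p = 0.00969) and a 2.99-fold rise for dexamethasone (log2 change 1.58, SE 0.22, adjusted p = 5.78e-05). Nr1d2 stood at 29.9, 29.8, 21.6 and 15.5 CPM in desisobutyryl ciclesonide livers, 46.8, 58.3, 61.9 and 63.7 CPM in dexamethasone livers and 30.5, 25.2, 25.2 and 18.3 CPM in vehicle livers. Dexamethasone raised it 2.33-fold in liver without overlap (log2 change 1.22, SE 0.20, adjusted p = 0.000199). The desisobutyryl ciclesonide livers overlapped the vehicle livers (log2 change -0.037, 95% interval -0.47 to 0.39, adjusted p = 0.941).

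Dbp, the output gene, varied most among replicates of the 9 genes, and no comparison of treatments passed for it. Dbp stood at 89.8, 74.7, 40.5 and 27.6 CPM in desisobutyryl ciclesonide lungs, 11.2, 7.94, 45.96 and 32.03 CPM in dexamethasone lungs and 31.5, 23.5, 12.9 and 9.66 CPM in vehicle lungs. In the desisobutyryl ciclesonide and vehicle lungs replicates 1 and 2 were high and replicates 3 and 4 low, and in the dexamethasone lungs it was the reverse. The mean was 58.2 ± 28.99 CPM with desisobutyryl ciclesonide, 24.3 ± 17.96 CPM with dexamethasone and 19.4 ± 10.03 CPM with vehicle (SD, n = 4 each). Of the desisobutyryl ciclesonide lungs, replicates 1, 2 and 3 lay above every vehicle lung and replicate 4 within the vehicle range (log2 change 1.59, 95% interval 0.20 to 2.98, adjusted p = 0.0925), and the difference passed with DESeq2 (adjusted p = 0.0389) and without lung dexamethasone replicates 3 and 4 together (adjusted p = 0.0371; 0.0371 to 0.202 over all alternatives). The dexamethasone lungs lay on both sides of the vehicle range (log2 change 0.33, 95% interval -1.04 to 1.70, adjusted p = 0.672), and the direction depended on single libraries: the log2 change was -0.16 without dexamethasone replicate 3 and -0.999 without replicates 3 and 4 together (adjusted p = 0.2004; 0.2004 to 0.895 over all alternatives). Dbp stood at 20.5, 17.5, 6.56 and 6.76 CPM in desisobutyryl ciclesonide livers, 19.5, 28.4, 45.2 and 42.1 CPM in dexamethasone livers and 53.8, 20.3, 12.3 and 8.48 CPM in vehicle livers. The livers repeated the pattern of the lungs, high in replicates 1 and 2 with desisobutyryl ciclesonide and with vehicle and high in replicates 3 and 4 with dexamethasone. Neither liver comparison with vehicle passed (log2 change -0.89, 95% interval -2.21 to 0.43, adjusted p = 0.428 for desisobutyryl ciclesonide; log2 change 0.51, 95% interval -0.78 to 1.81, adjusted p = 0.498 for dexamethasone). Without liver vehicle replicate 1, the highest liver, the log2 change was -0.10 for desisobutyryl ciclesonide and 1.303 for dexamethasone (adjusted p = 0.935 and 0.0521; 0.307 to 0.935 and 0.0521 to 0.766 over all alternatives). The biological coefficient of variation of Dbp was 58.3% in lung, above that of 94.96% of genes tested, and 56.1% in liver, above 97.8% of genes. For Clock it was 14.5% in lung and 15.4% in liver, where the median over all genes was 18.7% and 20.4%.

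Set directly against each other at their different doses, desisobutyryl ciclesonide gave lower levels than dexamethasone for 6 of 9 clock genes in lung and 6 in liver, and the others were not called. Over all genes 49.5% differed in lung and 46.3% in liver, with 24.4% and 22.5% lower. In lung the 6 were Bmal1 (log2 difference -1.30, adjusted p = 0.000261), Cry1 (-1.02, adjusted p = 0.000168), Clock (-0.91, adjusted p = 7.21e-05), Nr1d1 (-0.70, adjusted p = 0.0127), Nr1d2 (-0.67, adjusted p = 0.0204) and Per1 (-0.63, adjusted p = 0.00937). Without lung dexamethasone replicates 3 and 4 together, the differences of Nr1d1 and Nr1d2 were no longer called (adjusted p = 0.202 and 0.256), and Dbp was called higher with desisobutyryl ciclesonide (log2 difference 2.60, adjusted p = 0.0107; 0.118 with all libraries). The Nr1d2 call was also lost without dexamethasone replicate 3 or 4 or desisobutyryl ciclesonide replicate 3 or 4 alone (adjusted p = 0.0507, 0.0662, 0.0572 and 0.0555), and Per2 passed without dexamethasone replicate 1 (adjusted p = 0.0108; 0.0108 to 0.266 over all alternatives). Over all alternatives the adjusted p ranged over 0.00216 to 0.202 for Nr1d1, 0.00466 to 0.256 for Nr1d2 and 0.0107 to 0.265 for Dbp.

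In liver the lower genes were Nr1d2 (log2 difference -1.26, adjusted p = 0.000180), Nr1d1 (-1.22, adjusted p = 0.00501), Per1 (-1.22, adjusted p = 0.0290), Cry1 (-1.12, adjusted p = 0.000435), Per3 (-1.04, adjusted p = 0.0359) and Clock (-0.75, adjusted p = 0.000683). Bmal1 was not among them, at a log2 difference of 0.35 (95% interval -0.13 to 0.83, adjusted p = 0.219). The Per1 call was lost without dexamethasone replicate 2 or 4 or desisobutyryl ciclesonide replicate 1 or 2 (adjusted p = 0.0746, 0.0791, 0.0582 and 0.0728) and with no filter (adjusted p = 0.0683; 0.00249 to 0.0791 over all alternatives). The Per3 call was lost without dexamethasone replicate 2, 3 or 4 or desisobutyryl ciclesonide replicate 1, 3 or 4 (adjusted p = 0.0569, 0.0919, 0.102, 0.0684, 0.0813 and 0.0901), with limma-voom (adjusted p = 0.0504), with no filter (adjusted p = 0.0857) and on unscaled totals (adjusted p = 0.109; 0.00473 to 0.109 over all alternatives). Dbp passed without vehicle replicate 1 (adjusted p = 0.0250) and with DESeq2 (adjusted p = 0.0468; 0.0250 to 0.175 over all alternatives).

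Whether a drug moved a clock gene differently in the tissues was tested in a fit of all 24 libraries, subtracting the liver response of each gene from its lung response. For dexamethasone none of the 9 differences was called in the main edgeR fit, where 34.7% of all genes differed (16.9% higher in lung, 17.8% lower). In that fit 1 had an unadjusted p under 0.05, as had 44.0% of all genes. DESeq2 called 1 and limma-voom 0. Among all genes, 4176 to 5046 were called over all alternatives, these tools included. The nearest of the 9 was Nr1d1, whose log2 rise was larger in lung by 0.98 (edgeR, adjusted p = 0.0556). Lung and liver libraries of the same number deviated together in these same counts. The labels do not state that such libraries come from a single pup. On that presumption they were also fitted as pairs, with the pup as a block. In that fit the Nr1d1 difference was 0.91 and was called (adjusted p = 0.0218; 0.0218 to 0.264 over all alternatives), 1 of 9 where 38.1% of all genes were called. It was called as well when lung vehicle replicate 1, lung dexamethasone replicate 1 or 2, any 1 of the lung desisobutyryl ciclesonide replicates, liver vehicle replicate 4, liver dexamethasone replicate 2 or liver desisobutyryl ciclesonide replicate 3 was left out (adjusted p = 0.0412, 0.0221, 0.0431, 0.0490, 0.0487, 0.0482, 0.0483, 0.0378, 0.0434 and 0.0272), with DESeq2 (adjusted p = 0.0326) and on unscaled totals (adjusted p = 0.0303). It was smaller without lung dexamethasone replicates 3 and 4 together, at 0.62 (adjusted p = 0.264), and without liver vehicle replicate 1, at 0.65 (adjusted p = 0.190).

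For desisobutyryl ciclesonide the difference was called for Nr1d1, with a log2 change of 2.55 in lung and 1.05 in liver and a difference of 1.49 (SE 0.39, adjusted p = 0.0302), where 4.31% of all genes differed, 2.31% higher in lung and 2.0% lower. That call was lost without lung vehicle replicate 3, liver vehicle replicate 1 or liver desisobutyryl ciclesonide replicate 2 (adjusted p = 0.0526, 0.0909 and 0.0602), with limma-voom (adjusted p = 0.0615) and with no filter (adjusted p = 0.0583). With the pup as a block 5 of the 9 differences were called, against 5.88% of all genes in that fit. They were Dbp at 2.31 (adjusted p = 0.00202), Nr1d1 at 1.51 (adjusted p = 0.00835), Per3 at 1.11 (adjusted p = 0.0113), Nr1d2 at 0.96 (adjusted p = 0.00114) and Bmal1 at -1.11 (adjusted p = 0.0173). The first 4 were higher in lung relative to liver and Bmal1 was lower. Without the block the adjusted p was 0.121 for Dbp, 0.248 for Per3, 0.0856 for Nr1d2 and 0.0732 for Bmal1. The pairing behind the block was taken from the shared numbers and these counts, not from the labels. Dbp, Per3 and Nr1d2, called with the block and not in the main fit, had the highest r between same-number lungs and livers of the 9 (0.819, 0.832 and 0.895). The calls with the block are therefore not independent of that choice. The Bmal1 difference passed with DESeq2 (adjusted p = 0.0433), with limma-voom (adjusted p = 0.0483) and without lung desisobutyryl ciclesonide replicate 4 or liver vehicle replicate 4 (adjusted p = 0.0421 and 0.0254), and that of Nr1d2 with DESeq2 (adjusted p = 0.0350) and without lung dexamethasone replicate 1, lung desisobutyryl ciclesonide replicate 4 or lung dexamethasone replicates 3 and 4 together (adjusted p = 0.0487, 0.0452 and 0.0419). Over all alternatives the adjusted p ranged over 0.00381 to 0.0909 for Nr1d1, 0.00202 to 0.291 for Dbp, 0.0113 to 0.429 for Per3, 0.00114 to 0.170 for Nr1d2 and 0.0173 to 0.164 for Bmal1.

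Levels in vehicle lung against vehicle liver depended on the scaling. On TMM over all 24 libraries, Per1 averaged 41.2 ± 7.61 CPM in vehicle lungs and 20.1 ± 5.85 CPM in vehicle livers (SD, n = 4 each; log2 difference 1.03, adjusted p = 0.00917), and Clock averaged 25.7 ± 2.08 and 20.3 ± 3.23 CPM (log2 difference 0.34, adjusted p = 0.0302). Bmal1 averaged 14.5 ± 2.29 CPM in lungs and 26.5 ± 9.01 CPM in livers (log2 difference -0.87, adjusted p = 0.00218), and Dbp 12.3 ± 6.395 and 36.7 ± 32.03 CPM (log2 difference -1.57, adjusted p = 0.0321). These 4 of 9 were called, against 70.8% of all genes, 39.8% higher in lung and 31.1% lower. On unscaled library totals the median log2 difference of all genes moved by 1.24. Per1 and Clock were then still higher in lung, by 2.27 and 1.59, but Bmal1 turned to 0.37 (adjusted p = 0.131) and Dbp came to -0.35 (adjusted p = 0.621). Per2, Per3, Nr1d1 and Nr1d2 changed sign as well. The Clock call was in addition lost without any 1 of the lung libraries or without liver vehicle replicate 1, 2 or 3 (adjusted p up to 0.220), that of Dbp without lung vehicle replicate 3 or 4 or liver vehicle replicate 1 (adjusted p = 0.0675, 0.0743 and 0.259), and Cry1 passed without liver vehicle replicate 4 (adjusted p = 0.0147). With limma-voom the Dbp call was lost (adjusted p = 0.0693). With the pup as a block Nr1d2 was called too, at -0.22 (adjusted p = 0.0420), which made 5 of 9 where 72.4% of all genes were called. Over all alternatives the adjusted p ranged over 1.32e-06 to 0.0472 for Per1, 4.72e-10 to 0.220 for Clock, 0.000369 to 0.131 for Bmal1, 0.000137 to 0.621 for Dbp, 2.94e-07 to 0.900 for Cry1 and 0.000694 to 0.702 for Nr1d2.

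Libraries of the same number deviated together in lung and liver, and 5 of 9 clock genes showed this at an unadjusted p under 0.05, where 10.9% of all 13245 genes did. For each gene the deviation of a lung library from its group mean in log2 CPM was set against that of the liver library with the same treatment and number, over 12 pairs. The relation was tested by exact two-sided permutation of the livers within treatments, with Benjamini-Hochberg adjustment over the 13245 genes. After adjustment no clock gene passed, and neither did any other gene; 7.23e-05 is the smallest unadjusted p these permutations can give. Pearson's correlation was highest for Nr1d2, at r = 0.895 (exact permutation p = 7.23e-05, adjusted p = 0.192). Dbp had r = 0.819 (exact permutation p = 0.00203, adjusted p = 0.268), and in 12 of 12 pairs lung and liver deviated to the same side. Per3 had r = 0.832 (exact permutation p = 0.00810, adjusted p = 0.319), Per1 had r = 0.798 (exact permutation p = 0.0129, adjusted p = 0.355) and Per2 had r = 0.751 (exact permutation p = 0.0262, adjusted p = 0.400). The values were r = 0.469 (exact permutation p = 0.123, adjusted p = 0.575) for Nr1d1, r = 0.393 (exact permutation p = 0.201, adjusted p = 0.655) for Bmal1, r = 0.433 (exact permutation p = 0.279, adjusted p = 0.708) for Cry1 and r = 0.102 (exact permutation p = 0.778, adjusted p = 0.938) for Clock, and the median of r over all genes was 0.238.

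By rank, Spearman's correlation was 0.923 for Nr1d2 (exact permutation p = 7.23e-05, adjusted p = 0.192) and 0.783 for Dbp (exact permutation p = 0.00275, adjusted p = 0.347). It was 0.769 for Per1 (exact permutation p = 0.0224, adjusted p = 0.433), 0.748 for Per2 (exact permutation p = 0.0345, adjusted p = 0.470) and 0.594 for Per3 (exact permutation p = 0.0645, adjusted p = 0.528). It was 0.517 for Nr1d1 (exact permutation p = 0.0904, adjusted p = 0.571), 0.441 for Bmal1 (exact permutation p = 0.188, adjusted p = 0.681), 0.252 for Clock (exact permutation p = 0.458, adjusted p = 0.842) and 0.231 for Cry1 (exact permutation p = 0.532, adjusted p = 0.872). Without the pairs of the 2 lungs farthest from the median, Pearson's r was 0.854 for Nr1d2, 0.931 for Dbp, 0.798 for Per1, 0.601 for Per2 and 0.543 for Per3. It was then 0.443 for Nr1d1, 0.705 for Bmal1, 0.0826 for Clock and 0.0148 for Cry1. With each pair left out in turn, the unadjusted exact p was at most 0.000289 for Nr1d2, 0.00810 for Dbp and 0.0315 for Per1. The value for Nr1d2 was the same in every such fit and is the smallest that permutations of the remaining pairs can give. For Per2 it was 0.179, 0.0642 and 0.0723 without dexamethasone pair 1, 2 or 3, and for Per3 0.0535 without dexamethasone pair 1, in the same exact permutation test. Bmal1 came to an unadjusted exact p of 0.0148 without dexamethasone pair 2. The labels give no hour of tissue collection, litter or sex for a pup, and the part of any of these was not tested.

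**Figure D3:**
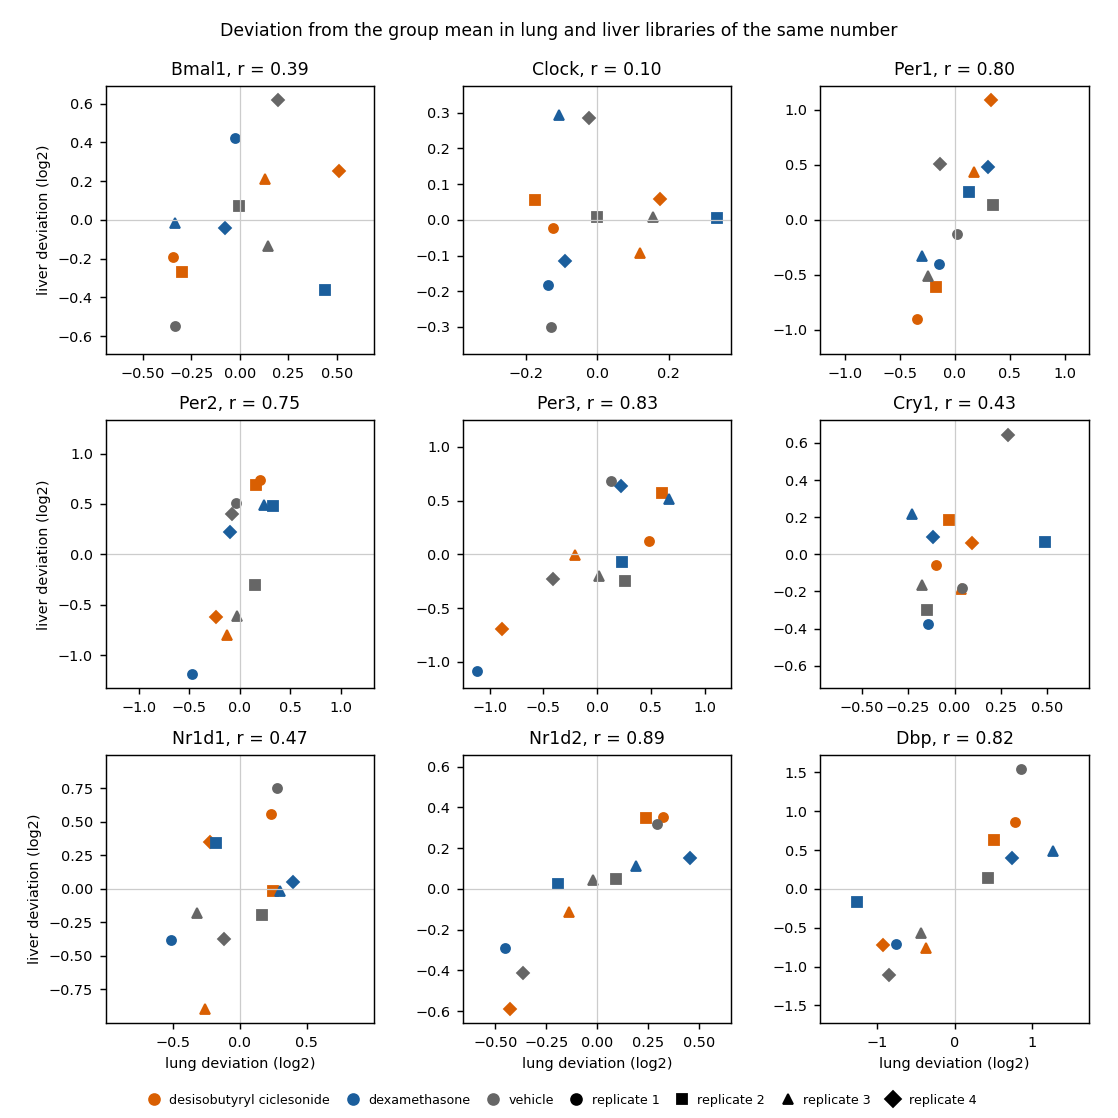
Deviation of each liver library from its group mean (vertical axis, log2) against that of the lung library of the same treatment and number (horizontal axis, log2), 1 panel per clock gene and 12 pairs per panel. Colours give the treatment and markers the replicate number; for Dbp all 12 points lie to the lower left or upper right of the origin, with r = 0.82.

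Likeness between the genes over all 24 libraries was described by Pearson's r of log2 CPM after the mean of each tissue was subtracted, and ranked over 10820 other genes with at least 2 CPM on average in each tissue. The libraries share treatments, and pups if the same-number pairing holds, so these are descriptions. Per3 ranked 4 among the genes most like Dbp (r = 0.652) and Nr1d2 ranked 25 (r = 0.572). Bmal1 ranked 10775 of 10820, close to the most unlike end (r = -0.553). The r of Bmal1 was negative with Per3 (-0.437) and Per2 (-0.232) as well. It was positive with Clock (0.671), Per1 (0.593), Cry1 (0.433), Nr1d1 (0.407) and Nr1d2 (0.238). Nr1d1 and Nr1d2 resembled each other (r = 0.872, with Nr1d1 at rank 7 for Nr1d2 and Nr1d2 at rank 16 for Nr1d1), as did Per2 and Per3 (r = 0.752, ranks 7 and 2) and Clock and Cry1 (r = 0.885, ranks 58 and 14). Per1 lay nearest to Nr1d1 among the clock genes (r = 0.858, rank 136) and its r was near 0 with Per2 (r = -0.0442) and Per3 (r = -0.0509). Outside the 9 genes, the identifier most like Per1 was ENSRNOG00000014215 (r = 0.960), that most like Dbp was ENSRNOG00000019383 (r = 0.727) and that most like Bmal1 was ENSRNOG00000031479 (r = 0.902). No name is paired with them in the files or the reference table.

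The balance of Bmal1 against Dbp, Nr1d1, Nr1d2, Per1, Per2 and Per3 was described in each library as log2 CPM of Bmal1 less the mean log2 CPM of those genes. It ran from -2.60 to -1.07 in desisobutyryl ciclesonide lungs, -1.54 to -0.22 in dexamethasone lungs and -1.34 to -0.23 in vehicle lungs. In liver it ran from 0.42 to 1.53 in desisobutyryl ciclesonide livers, -1.08 to 0.52 in dexamethasone livers and -1.24 to 0.74 in vehicle livers. Relative to vehicle, the desisobutyryl ciclesonide values thus lay toward the low end in lung and toward the high end in liver, with overlap in each tissue. The difference of Bmal1 and Dbp alone covered -2.41 to 0.14 in desisobutyryl ciclesonide lungs, -0.12 to 3.17 in dexamethasone lungs and -0.82 to 1.41 in vehicle lungs. In liver that difference covered 0.53 to 2.56 with desisobutyryl ciclesonide, -0.79 to 0.86 with dexamethasone and -2.25 to 1.56 with vehicle. No test was made of this score, since the genes in it also enter the comparisons above. Of these genes, Per1, Nr1d1 and Nr1d2 were called higher with both drugs in lung, and Bmal1 with dexamethasone alone. Such changes move the score, so it does not give a time of day.

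**Figure D4:**
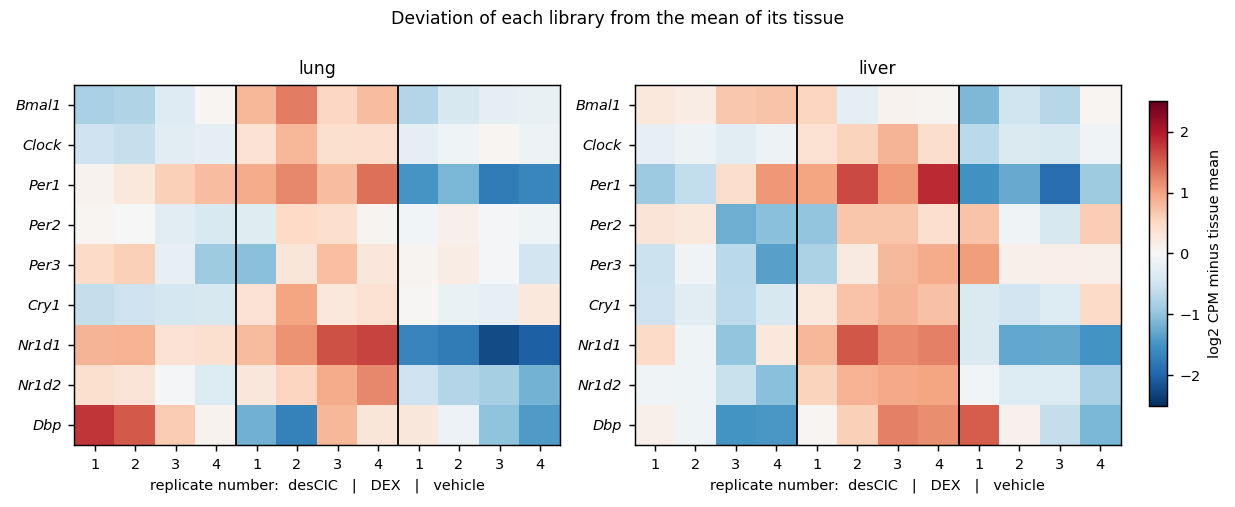
Log2 CPM of each clock gene in each library less the mean of its tissue, as colour from blue (low) to red (high), in lung (left) and liver (right). Columns are replicates 1 to 4 of desCIC (desisobutyryl ciclesonide), DEX (dexamethasone) and vehicle; the Dbp row changes within each group in a like way in lung and liver, and the Per1 and Nr1d1 rows are low in the vehicle columns.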

How the data were processed

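Raw counts per gene identifier were used as the authors deposited them, 1 table for each of 24 libraries. Cutadapt, HISAT2 and HTSeq, with build mRatBN7.2, are listed in the submitters' processing notes; versions, settings and the use of strand in counting are not given in the sources used here, so overlapping antisense genes could share counts. Per the labels' protocols, polyadenylated RNA was prepared with a directional dUTP kit. The 5 summary rows for unassigned reads, 16.8% to 31.8% of entries, were left out of library sizes and tests.

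Counts were filtered (filterByExpr), scaled by TMM and fitted in edgeR 4.0.16 (R 4.3.3) by robust quasi-likelihood, with 1 mean per treatment in the 12 libraries of a tissue (16108 genes in lung, 13734 in liver) or per tissue and treatment in all 24 (13245 genes for differences between tissues, 16477 for vehicle lung against liver). Standard errors are the log2 change over the root of F. DESeq2 1.42.0, limma-voom (limma 3.58.1), RLE factors, unscaled totals (chosen after seeing the data), no filter, a replicate block and leaving out libraries were alternatives. Log2 CPM used a prior count of 2. The fits were tested on simulated data.

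The members and lists were chosen with earlier results of these data known. The rule named all 9 members in every comparison, wider lists by symbol, and the genes most like Per1, Dbp and Bmal1. The reference table of 47357 genes holds none of the 30560 identifiers, so no wider list was run and 1 identifier per gene is given for likeness. Same-number lung and liver libraries of a treatment deviated together in all 12 pairs (r from 0.114 to 0.316 across 13245 genes) and were taken as pairs; the pairing comes from these data and the shared numbers, not from a statement in the labels. Exact p-values for this deviation gene by gene were adjusted over the 13245 genes; an adjustment over the 9 alone had been planned. In each of the 36 replicate pairs counts differed by more than sampling noise (lowest chi-square over its degrees of freedom 11.6). Since litters are not named, p-values measure the spread between these libraries.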

Additional observations from a re-analysis of the deposited data

Results flagged for a closer look

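In 5 of 54 sets of 4 replicates 1 library stood far from the other 3 by Dixon's criterion on log2 CPM; chance alone flags about 1 in 20. Per2 was low in liver dexamethasone replicate 1 (12.8 CPM, a gap of 0.841 of the group's range). Per3 was high in liver vehicle replicate 1 (36.4 CPM, 0.947 of the range). Clock and Cry1 were both high in lung dexamethasone replicate 2 (77.3 CPM, 0.903 of the range, and 67.7 CPM, 0.838 of the range). Cry1 was high in liver vehicle replicate 4 (18.1 CPM, 0.857 of the range). The change of Nr1d1 with desisobutyryl ciclesonide differed between tissues by the test of the difference itself, larger in lung by 1.49 on the log2 scale (edgeR, adjusted p = 0.0302).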

How the results depend on the processing

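The count of clock genes called was 6 for dexamethasone in each tissue under every tool, scaling, filter and block except 5 in liver on unscaled totals, and without single libraries it was 6 to 7 in lung and 5 to 6 in liver. For desisobutyryl ciclesonide it was 3 to 5 in lung and 0 to 2 in liver without single libraries, and for desisobutyryl ciclesonide against dexamethasone 5 to 7 and 4 to 7. Among all genes, dexamethasone calls without single libraries were 8122 to 8966 in lung and 5826 to 6568 in liver. They were 2564 to 4661 and 295 to 836 for desisobutyryl ciclesonide, and 6945 to 8025 and 5649 to 6496 between the drugs. In liver desisobutyryl ciclesonide called 4 with DESeq2 against 1. For the dexamethasone difference between tissues DESeq2 and unscaled totals called 1 against 0, and single libraries gave 0 to 1. Among all genes, 4176 to 5046 were called for it over all alternatives. For the desisobutyryl ciclesonide difference DESeq2 called 3, no filter 0, the fit without lung dexamethasone replicates 3 and 4 called 2 and fits without single libraries 0 to 3, against 1. Among all genes, 439 to 967 were called for that difference over all alternatives. Vehicle lung against liver gave 2 to 5 without single libraries, where 11199 to 11900 of all genes were called. It gave 7 on unscaled totals, where 13977 of 16477 genes were called. Unscaled totals turned Per2 to 1.00, Per3 to 1.19, Bmal1 to 0.37, Nr1d1 to 0.94 and Nr1d2 to 1.02. Deviations shared by lung and liver had an unadjusted p under 0.05 for 3 to 5 genes without single pairs, against 5. The balance of Bmal1 in vehicle lungs was -0.070 with Dbp, Nr1d1 and Nr1d2 alone, against -0.75. Over all genes, liver desisobutyryl ciclesonide calls were 1191 with DESeq2 against 621, and 358, 295 and 374 without vehicle replicates 2, 3 and 4, and 409, 379 and 322 without desisobutyryl ciclesonide replicates 2, 3 and 4. Lung desisobutyryl ciclesonide calls were 2564 without desisobutyryl ciclesonide replicate 3 against 3884, and the difference between tissues had 967 with DESeq2 against 571. Of 1944 single-gene results under alternatives, 1824 kept their side of the threshold, 68 lost a call, 47 gained one and 5, those just named, changed sign with a call before or after. Where not stated, the cause was not tested.

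Within a tissue the numbers 1 to 4 did not consistently pair libraries of different treatments. Own-number deviations correlated over 0.1 in 5 of 12 lung and 1 of 12 liver pairs, and 6 and 3 correlated best with their own number. The r of such pairs ran from -0.259 to 0.362 in lung and from -0.0929 to 0.107 in liver. Whether same-number lungs shared a litter or batch was not tested. With the replicate block the counts were 6, 4 and 6 in lung and 6, 2 and 5 in liver, for dexamethasone, desisobutyryl ciclesonide and desisobutyryl ciclesonide against dexamethasone. In the same order, calls among all genes over all alternatives, this block included, were 8122 to 9315, 2564 to 4661 and 6945 to 8389 in lung. In liver they were 5826 to 6875, 295 to 1191 and 5649 to 6698. The replicate block gained Per1 in desisobutyryl ciclesonide livers (log2 change 1.46, adjusted p = 0.0293) and lost Per3 in liver desisobutyryl ciclesonide against dexamethasone (adjusted p = 0.0798). With the pup as a block between tissues the counts were 1 for dexamethasone, 5 for desisobutyryl ciclesonide and 5 for vehicle lung against liver. The shares of all genes were 38.1%, 5.88% and 72.4%. Depth was no less than 105 counts for any clock gene in any library.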
